A study of Mus musculus with 24 samples.

Results

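Mouse livers collected 48 h after acetaminophen (APAP) were compared with untreated livers (0 h) across both genotypes of the liver-specific E2f7/E2f8 knockout (LKO) cohort. The members were chosen by sample label and comprise 10 of the 24 libraries of the series: 4 control and 4 LKO mice at 0 h, sequenced singly, and 1 control and 1 LKO pool at 48 h, each made from the RNA of 3 mice given 300 mg/kg APAP. All animals in the cohort were males aged 2.5 months, of a mixed, mostly FVB background, with floxed alleles of E2f7 and E2f8 and the R26R-mTmG reporter on both chromosomes. LKO mice (labelled KO) also carried 1 copy of Alb-Cre, a Cre transgene under the albumin promoter, and control littermates (labelled WT) carried none. Every mouse was fasted overnight, and the 0 h mice received no APAP, so the comparison also spans whatever differed in feeding and clock time between the 0 h and 48 h collections, neither of which is given in the sources used here. Alb-Cre acts in hepatocytes and bile duct cells from development on, so that LKO hepatocytes reached adulthood without both genes and are mostly diploid, whereas control hepatocytes are mostly polyploid. Kupffer cells, endothelium and stellate cells keep both genes in LKO livers.

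APAP is made reactive by cytochrome P450 enzymes, chiefly CYP2E1 and CYP1A2, in the hepatocytes around the central vein. The product consumes glutathione, damages mitochondria and kills these pericentral cells, after which monocyte-derived macrophages enter to clear the debris and surviving hepatocytes leave quiescence and divide. Cell division runs on successive gene programs: E2F factors switch on DNA replication genes in late G1, and FOXM1, MYBL2 and their partners switch on the mitotic genes in G2. E2F7 and E2F8 are atypical members of the E2F family that repress their targets and promote polyploidy in the liver.

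Values are in CPM, counts scaled to a common library size with TMM factors, and log2 fold changes, their standard errors (SE) and adjusted p-values come from edgeR's quasi-likelihood test on the counts with genotype as a covariate and Benjamini-Hochberg adjustment over all genes tested. A gene is said to have risen or fallen where the adjusted p was under 0.05 and the change at least 1.5-fold. The 10 libraries held 12665686 to 19046197 reads assigned to genes, with 16823533 in the control pool and 16696468 in the LKO pool, and 3 counts correspond to 0.153 to 0.261 CPM. The summed CPM of 5 hepatocyte markers lay at 38100 to 103700 in the 0 h mice, 83550 in the control pool and 88150 in the LKO pool, and markers of red cells and adipose tissue were under 3 counts in every library. The pools average 3 mice each and were assumed to vary like single mice.

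At 48 h, 2086 of 13271 genes tested (15.7%) differed from 0 h, of which 1272 were higher (9.58% of genes tested) and 814 lower (6.13%). The median log2 fold change of all genes was -0.01, and with scaling by library size alone, which moved that median to 0.19, 1983 genes were called higher and 456 lower. Among the 2086 genes, 1866 had both pools on the same side outside the range of all 8 mice, against 24.7% of all genes tested. The change was larger in the control pool for most of them: relative to its own genotype at 0 h, the median log2 difference of the genes that rose was 1.46 in the control pool and 0.96 in the LKO pool, and that of the genes that fell was -1.03 and -0.76. A total of 951 of the 1272 rises and 546 of the 814 falls reached 1.5-fold in each pool taken alone. Without the control pool 290 genes were called, 222 higher and 68 lower, and without the LKO pool 2386, so counts without the control pool are given with the gene lists.

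E2f7, which spans chromosome 10 from 110745439 to 110787384 on the plus strand of GRCm38, was barely detected at 0 h. Its level was 0.117 to 0.499 CPM in the 8 mice (median 0.224), 1.13 CPM in the control pool and 1.47 CPM in the LKO pool. Both pools lay above every 0 h mouse and E2f7 rose (log2 fold change 2.30 ± 0.47 SE, adjusted p = 0.00713). The call was lost without the control pool, although the log2 difference from 0 h was larger in the LKO pool, at 1.48 against 0.99. E2f8, on chromosome 7 from 48866429 to 48881596 on the minus strand, was 11.6, 18.5 and 34.3 CPM at the lowest, median and highest of the 0 h mice. By genotype it was 11.6 to 18.8 CPM in the control and 17.7 to 34.3 CPM in the LKO mice, so that 3 of the 4 mice labelled LKO lay above every control mouse for a gene targeted in their hepatocytes. It stood at 4.91 CPM in the control pool, under all 8 mice, and at 21.4 CPM in the LKO pool, within their range, and it did not pass the test (log2 fold change -0.85 ± 0.34, adjusted p = 0.106). These counts cover all exons, including any transcript left after excision, and each gene overlaps an antisense entry in the annotation that unstranded counting cannot separate, so they do not check the genotype labels. Directions between genotypes follow the labels. Among the other E2F genes and their DP partners only E2f1, an activator, rose, from 2.52 to 5.04 CPM at 0 h to 8.08 in the control pool and 11.5 in the LKO pool (adjusted p = 0.0014). E2f1 and E2f7 were the 2 of 10 tested members of the family that rose, and E2f1 was still called without the control pool.

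Genes of DNA replication and mitosis were higher at 48 h. Of 52 DNA replication genes tested, 39 rose and 1 fell, and of 59 mitosis genes, 56 rose and 0 fell. The median log2 fold change was 1.35 for replication and 3.55 for mitosis genes, against -0.01 for all genes. Both pools lay above all 8 mice for 42 replication and 57 mitosis genes, against 13.2% of all genes tested. Without the control pool 16 replication and 39 mitosis genes were still called higher, and without the LKO pool 29 and 54. With at least 10 counts required in every library, 15 mitosis genes were left to test and 13 were called, with a median log2 fold change of 1.60, against 1.15 for the 39 replication genes left.

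Many, but not all, of the promoters found for these genes carry the letters that the corresponding factors are known to bind. Short stretches were searched on both strands in the 250 bases before to 50 bases after the annotated start of each gene (RefSeq, GRCm38.p6): the E2F-type letters TTCCCGC or else TTGGCGC or else TTCGCGC or else TTGCCGC, the CHR letters TTTGAA read by the MuvB complex, and the NF-Y box CCAAT. The complement of TTGGCGC holds CCAA, so an E2F-type match that goes on with T also counts as a CCAAT match. A window was found for 40 replication and 47 mitosis genes. E2F-type letters were in 25 of the 40 replication windows (62.5%) and 7 of the 47 mitosis windows (14.9%), against 10.9% of the windows of all 27025 genes and 18.7% of the genes tested. CHR letters showed the opposite order, with 12.5% of replication and 70.2% of mitosis windows (33 of 47), against 20.2% of all windows and 14.5% of the genes tested. CCAAT was in 62.5% of replication windows, 74.5% of mitosis windows, 41.1% of all windows and 42.7% of the genes tested. These shares describe letters, not binding. The 220 bases before the start are shown 5′ to 3′ on the strand of the gene for 1 replication gene, Mcm5 (chr8:75109289-75109508, plus strand), and for 2 mitosis genes, Cdk1 (chr10:69352913-69353132, minus strand) and Mki67 (chr7:135716380-135716599, minus strand), because the first holds E2F-type without CHR letters and the others hold both. In holding E2F-type letters, Cdk1 and Mki67 differ from most mitosis windows. Capitals mark the letters searched, on either strand.
Mcm5: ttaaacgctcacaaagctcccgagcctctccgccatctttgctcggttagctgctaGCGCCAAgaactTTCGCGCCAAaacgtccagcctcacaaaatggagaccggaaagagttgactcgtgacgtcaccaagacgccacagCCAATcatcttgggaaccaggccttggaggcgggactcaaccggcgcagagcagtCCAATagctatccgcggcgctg
Cdk1: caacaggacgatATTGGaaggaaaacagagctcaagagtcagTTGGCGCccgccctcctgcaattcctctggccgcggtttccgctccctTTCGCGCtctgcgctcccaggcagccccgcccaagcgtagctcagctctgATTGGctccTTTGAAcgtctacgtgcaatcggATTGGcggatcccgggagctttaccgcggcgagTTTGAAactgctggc
Mki67: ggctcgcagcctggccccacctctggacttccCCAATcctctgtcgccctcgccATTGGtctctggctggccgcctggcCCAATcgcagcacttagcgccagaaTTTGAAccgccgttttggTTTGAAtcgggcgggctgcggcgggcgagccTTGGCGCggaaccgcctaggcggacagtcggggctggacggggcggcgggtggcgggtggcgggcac
The Mcm5 stretch holds 3 E2F-type matches, 2 of them overlapping, and 0 CHR matches, the Cdk1 stretch holds 2 of each, and the Mki67 stretch holds 1 E2F-type and 2 CHR matches.

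The subunit genes of the MCM helicase rose, as did its loading factor Cdc6. Mcm5, a subunit of the MCM helicase that unwinds DNA, was 0.940 to 4.33 CPM in the 0 h mice (median 2.00) and 23.4 and 24.4 CPM in the control and LKO pools, a log2 fold change of 3.66 ± 0.29 (adjusted p = 2.01e-05). The pools were close to each other and far above every mouse. The helicase genes Mcm2, Mcm3, Mcm4, Mcm6 and Mcm7 rose as well, by 2.91, 2.59, 2.53, 3.39 and 1.06 on the log2 scale. Cdc6, which loads the helicase, went from a median of 0.269 CPM at 0 h (highest mouse 0.440) to 3.02 in the control pool and 5.08 in the LKO pool. Uhrf1, which carries DNA methylation to the new strand, had the largest change of the list: 0.261, 0.768 and 2.65 CPM at the lowest, median and highest mouse, and 18.7 and 32.3 CPM in the pools (log2 fold change 4.82 ± 0.33, adjusted p = 5.77e-06). Here the LKO pool was the higher of the pair. Rrm2, a subunit of the enzyme that makes deoxynucleotides, and Pcna, the sliding clamp of the polymerases, reached 47.4 and 44.5 CPM in the control pool and 33.0 and 44.9 in the LKO pool, above highest values of 12.2 and 28.6 at 0 h. Tk1, a thymidine kinase gene that was already at a median of 38.3 CPM in fasted mice, did not pass the test, with adjusted p = 0.958. Antisense entries overlap Tk1 in the annotation, and unstranded counting cannot separate their reads. Of the replication genes named as rising, Pcna and Rrm2 lost the call without the control pool.

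Mcm10, a replication factor that joins the helicase at firing, was the single replication gene that fell. It ranged from 88.9 to 264 CPM at 0 h (median 121), far above the other origin genes, and stood at 22.3 CPM in the control pool and 42.2 CPM in the LKO pool. Both pools lay under every mouse, and the log2 fold change was -2.05 ± 0.45 (adjusted p = 0.0101). The call was lost without the control pool.

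Mitotic genes started from lower levels and changed more. Mki67, the source of the Ki-67 proliferation antigen, was 0.764 to 3.52 CPM in the 0 h mice (median 1.37), 36.1 CPM in the control pool and 30.7 CPM in the LKO pool (23.0-fold, adjusted p = 5.14e-06). Top2a, which untangles sister chromatids, was 0.499, 1.19 and 2.33 CPM at the lowest, median and highest mouse and 26 and 27.8 CPM in the pools (21.3-fold, adjusted p = 1.94e-06). For both genes the pools differed little between genotypes. Ccnb1 encodes cyclin B1, the partner that activates the CDK1 kinase at mitotic entry. It was at most 0.541 CPM at 0 h and 9.82 and 6.21 CPM in the control and LKO pools (log2 fold change 5.10 ± 0.50), and Cdk1 was at most 2.54 CPM at 0 h and 18.1 and 16.1 CPM in the pools (log2 fold change 3.72 ± 0.34). Ttk and Bub1, kinases of the spindle checkpoint, were at 0 counts in 5 and 3 of the 8 mice, with 7 and 11 counts over all 8, and at 2.97 and 2.92 CPM in the control pool and 3.73 and 3.61 in the LKO pool. Foxm1, which encodes a driver of this program, rose from a median of 0.282 CPM to 7.31 and 5.36 CPM (adjusted p = 0.000173). All of the mitosis genes named so far were still called without the control pool. The 3 mitosis genes that were not called were Pttg1, Cdc25b and Spc24. Pttg1, the securin gene and the most abundant of the list at 0 h, was at 17.6 and 22.7 CPM in the pools against 20.6 to 38.1 CPM in the mice. In 49 of the 59 mitosis genes the log2 difference from 0 h was larger in the control pool, and in 25 of the 52 replication genes it was larger in the LKO pool. Of the 111 genes in both lists, 0 differed between genotypes in the 48 h response by edgeR or by DESeq2, and 8 had an unadjusted p under 0.05 in edgeR.

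**Figure D1:**
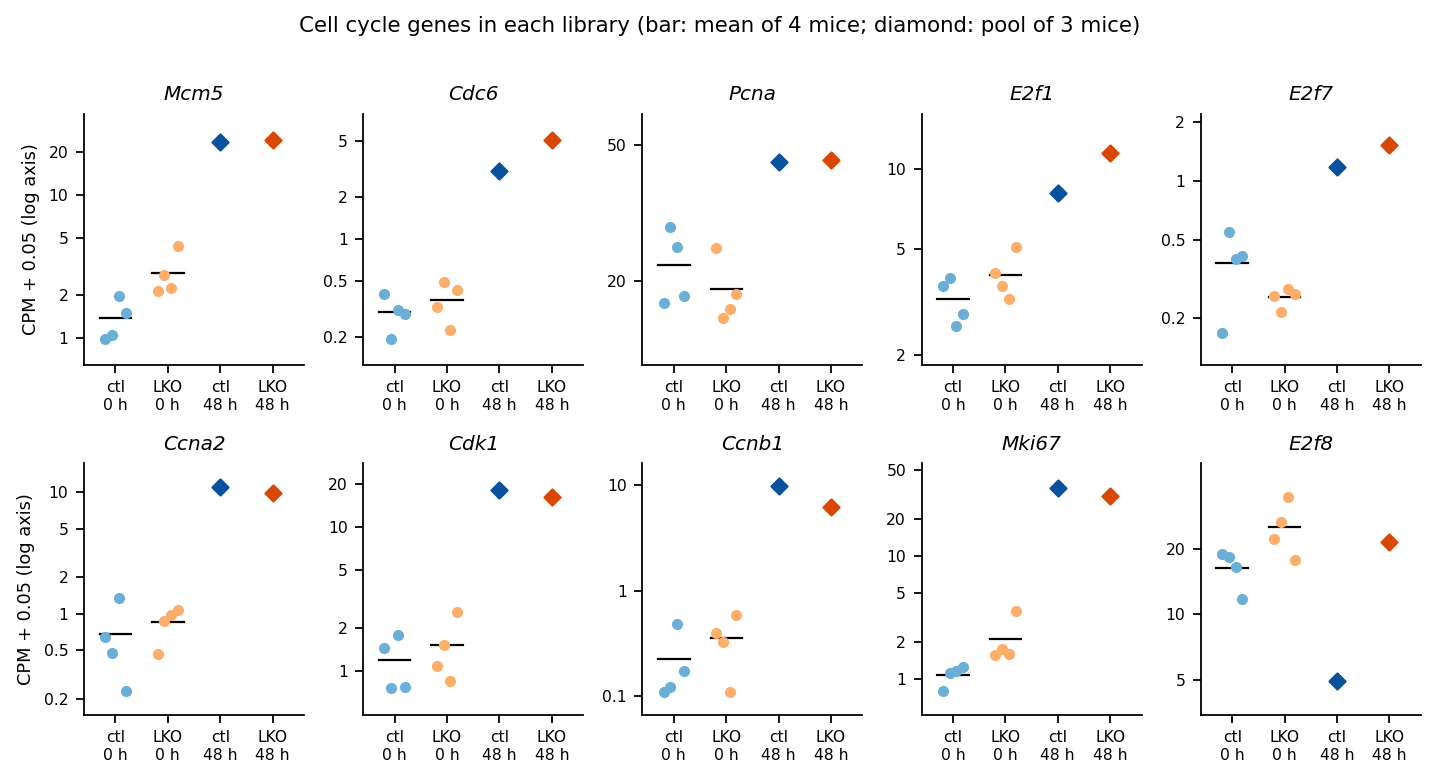
CPM on a log scale for cell-cycle genes in the 10 libraries: points at 0 h are single mice (4 control and 4 LKO) and points at 48 h are the control and LKO pools of 3 mice. Bars mark the means of 4 mice and 0.05 is added to each value. Both pools lie above all 8 mice in every panel but E2f8, as for Mki67 at 36.1 and 30.7 CPM.

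Of the G1 regulators, 3 of 16 tested rose and 0 fell, with 1 rise without control mouse 1 or 2 and 5 with scaling by library size or with the stranded count of column 3. Cdkn1a, the p53-induced inhibitor p21 that holds cells in G1, was 1.22 to 32.7 CPM at 0 h with a median of 5.15, 206 CPM in the control pool and 35.1 in the LKO pool (log2 fold change 3.69 ± 1.03, adjusted p = 0.0296). The LKO pool was only just above the highest mouse. Ccnd1, cyclin D1 of early G1, was 15.9 to 41.0 CPM at 0 h and 44.1 and 48.7 CPM in the pools, above every mouse, but its adjusted p was 0.0521. The other members that rose were Cdc25a, a phosphatase that activates CDK2, and Rbl1, the pocket protein p107, which is itself an E2F target (7.21 and 6.89 CPM against at most 3.39 at 0 h). Without the control pool 0 of the 16 were called by edgeR, and 3 had an unadjusted p under 0.05.

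Genes of the pericentral hepatocytes fell in larger number than those of the periportal hepatocytes. Of 33 pericentral genes tested, 16 fell and 1 rose, with a median log2 fold change of -1.42, and both pools lay under all 8 mice for 20, against 11.5% of all genes tested. Of 28 periportal genes, 5 fell and 2 rose, with a median of -0.36. Without the control pool 6 pericentral genes and 1 periportal gene were called lower, and without the LKO pool 25 and 11. The summed CPM of the pericentral list was 13980 to 26140 in the 0 h mice, 2391 in the control pool and 8699 in the LKO pool. In whole liver RNA, fewer cells of a type and less RNA per cell cannot be told apart.

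Slc1a2, the glutamate transporter GLT-1 of the innermost pericentral cells, had the largest fall of all genes named here. It was 94.3 to 139.6 CPM in the 8 mice, 0.205 CPM in the control pool (4 counts) and 0.452 CPM in the LKO pool (8 counts), a log2 fold change of -8.45 ± 0.35 (adjusted p = 1.47e-07). Glul, glutamine synthetase of the same cells, was 416 to 575 CPM in the mice, 158 CPM in the control pool and 67.1 CPM in the LKO pool (4.48-fold lower, adjusted p = 0.000492). In this gene the LKO pool was the lower of the pair. The pericentral ring is maintained by Wnt signals, and the Wnt target Sp5 had 110 counts over the 8 mice and 0 in both pools, at least 10.7-fold lower with a floor of 3 counts over both pools. Lgr5, the R-spondin receptor and a Wnt target, was 1.85 to 4.58 CPM at 0 h and 0.358 and 1.13 CPM in the pools. Axin2, a further Wnt target, had adjusted p = 0.0594 and was not called. The ligands made by the central vein and sinusoidal endothelium also fell. Wnt2 was 2.43 to 4.44 CPM at 0 h and 1.84 and 1.47 CPM in the pools (adjusted p = 0.024), and Wnt9b was 0.596 to 1.91 CPM and then 0.307 and 0.226 CPM (adjusted p = 0.0355). Rspo3, which amplifies the same signal, had adjusted p = 0.201. Slc1a2 and Glul were still called lower without the control pool, whereas Sp5, Lgr5, Wnt2 and Wnt9b were not.

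Of the enzymes that activate APAP, Cyp2e1, Cyp3a11 and Cyp2a5 fell, and each was lower in the control pool than in the LKO pool. Cyp2e1 was 4944, 7664 and 9675 CPM at the lowest, median and highest mouse, 449 CPM in the control pool and 2205 CPM in the LKO pool (log2 fold change -2.61 ± 0.53, adjusted p = 0.00688). Cyp1a2 was 642 to 1072 CPM at 0 h and 48.8 and 460.3 CPM in the control and LKO pools. Its shared change was not called (adjusted p = 0.0596), and it is among the genes whose response differed between genotypes. Cyp3a11 and Cyp2a5, a drug-metabolising and a coumarin-hydroxylating P450, fell from medians of 5795 and 607 CPM to 607 and 10.4 in the control pool and 3323 and 112 in the LKO pool. For Cyp3a11 the LKO pool lay within the 0 h range of 3256 to 7991 CPM but under the LKO mice, whose lowest was 4021 CPM. The fourth of the 12 bioactivation genes that fell was Nr1i2, the xenobiotic receptor PXR, and 0 rose. All 12 stood higher, relative to their own 0 h mice, in the LKO pool, with a median log2 difference of -0.29 there and -1.02 in the control pool, and without the control pool 1 fell and 1 rose. The 4 falls became 2 without control mouse 1, LKO mouse 2 or LKO mouse 4, and with scaling by library size or without control mouse 3 there were 2 rises beside the 4 falls. Of 21 glucuronidation and sulfation genes, which conjugate APAP for excretion, 2 fell and 0 rose. The number that fell was near the share of 6.13% of all genes tested. They were Ugt3a1, at 8.95 and 21.2 CPM in the pools against 65.6 to 82.1 CPM at 0 h, and Ugt3a2. Without the LKO pool 11 of the 21 were called lower, with DESeq2 6, with all 18 libraries in the fit 5, and without control mouse 1, 2 or 4 or LKO mouse 3 or 4 only 1. Cyp2e1 and Ugt3a1 were still called without the control pool, and Cyp3a11, Cyp2a5, Nr1i2 and Ugt3a2 were not.

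Among periportal genes, Cps1, the entry enzyme of the urea cycle, was 3255 to 5916 CPM at 0 h and 3360.2 and 5653 CPM in the pools (log2 fold change -0.03 ± 0.26), within the range of the mice in both. Otc, which makes citrulline in the same cycle, was 348 to 543 CPM at 0 h, 127 CPM in the control pool and 399.8 CPM in the LKO pool, and was the periportal gene whose response differed between genotypes (adjusted p = 0.0362). The 5 that fell were the gluconeogenic genes Pck1, G6pc and Fbp1, the P450 gene Cyp2f2 and Pigr, the receptor that carries IgA into bile. Pck1 was 3505 to 7075 CPM in the fasted mice and 2058 and 2522 CPM in the pools, and Cyp2f2 was 1363 to 2344 CPM and then 423 and 595 CPM. Cdh1, encoding E-cadherin, rose in the test, but stood at 228 CPM in the control pool and 75.2 CPM in the LKO pool, the second within the 0 h range. Secreted proteins and regulators of hepatocytes overall gave 6 falls and 0 rises among 33, with a median of -0.42, and with scaling by library size 2 falls and 2 rises. Alb, the albumin gene, was 26511 to 82922 CPM at 0 h and 66069.9 and 71793 CPM in the pools. The liver factors Cebpa and Hnf4a fell. Cebpa was 509 to 680.3 CPM in the mice and 181 and 262 CPM in the pools (adjusted p = 0.00125), and Hnf4a was 593 to 1152 CPM in the mice and 464 and 473 CPM in the pools (adjusted p = 0.0308). The 6 falls became 3 without control mouse 1 or 2 or LKO mouse 2 or 4. When the control pool was left out, Cebpa was the 1 gene of this list called, and of the periportal genes that fell Cyp2f2 was.

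Genes of recruited monocytes and macrophages rose together, whereas the defining genes of resident Kupffer cells did not pass the test. Of 28 recruited-cell genes tested, 21 rose and 0 fell, with a median log2 fold change of 1.47, and both pools lay above all 8 mice for 22, against 13.2% of all genes tested. The summed CPM of the 6 markers Ly6c2, Ccr2, Itgam, Cx3cr1, Gpnmb and Trem2 was 2.36 to 4.46 in the mice and 25.2 and 29.3 in the control and LKO pools, with all 6 above the range of the mice in both. With the control pool left out, 9 of the genes tested were called higher, among them Chil3, Gpnmb, Trem2, Mmp12, Ccr2 and Cd68.

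Chil3, a chitinase-like protein of newly arrived monocytes, was 0 to 0.831 CPM in the mice and 39.9 CPM in the control pool and 15.1 CPM in the LKO pool (log2 fold change 6.48 ± 0.54, adjusted p = 2.47e-05). Ccr2, the receptor that brings monocytes out of the marrow, was 0.541 to 1.13 CPM and then 4.71 and 5.14 CPM (6.54-fold, adjusted p = 9.9e-05). The pools were alike for Ccr2 and apart for Chil3. Gpnmb and Trem2, genes of lipid-laden and debris-clearing macrophages, reached 6.24 and 3.94 CPM in the control pool and 7.74 and 4.97 CPM in the LKO pool from at most 0.243 and 0.325 CPM. Mmp12, the macrophage elastase, was at most 0.783 CPM in the mice and 8.18 and 13.2 CPM in the pools. Cd68, a lysosomal glycoprotein of phagocytes, was 4.84 to 6.77 CPM and then 25.6 and 29.5 CPM (4.77-fold, adjusted p = 5.25e-06). F13a1, a transglutaminase of monocytes, and Spp1, osteopontin, rose to 7.67 and 193 CPM in the control pool and 2.09 and 74.2 CPM in the LKO pool from at most 0.783 and 67.0 CPM. Csf1r and Adgre1, which resident and recruited macrophages share, stood at 31.7 and 5.17 CPM in the control pool and 41.4 and 14.7 CPM in the LKO pool against medians of 33.8 and 8.82, and neither was called.

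The Kupffer cell markers Clec4f, Timd4, Vsig4 and Cd5l summed to 111 to 303.3 CPM in the mice, with a median of 136.3, 112.1 CPM in the control pool and 216.4 CPM in the LKO pool. The highest sum was that of LKO mouse 1, with Clec4f at 169 CPM and Cd5l at 104 CPM. Cd5l, a secreted scavenger protein, was at most 54.1 CPM in the other mice, 34.9 CPM in the control pool and 89.7 CPM in the LKO pool, which thus lay above all mice but that one. Clec4f, the lectin by which these cells are identified, was 61.1 CPM in the control pool and 94.0 CPM in the LKO pool against 59.1 to 169 CPM (adjusted p = 0.717). Of 12 Kupffer-list genes 0 fell, and 1 did with DESeq2. Both pools lay under all 8 mice for 2 of the 12, against 11.5% of all genes tested. The 2 genes that rose were Clec1b and Marco, a scavenger receptor at 1.04 to 4.02 CPM in the mice and 29.4 and 20.4 CPM in the pools. Both were still called without the control pool. Of 41 phagocytosis and lysosome genes, 10 rose and 1 fell, with a median of 0.30. Those that rose included Gpnmb, Msr1, the scavenger receptor A, at 23.5 and 36.4 CPM against 5.28 to 9.22 CPM, and Mfge8, a bridge to dying cells, at 194 and 54.9 CPM against at most 28.9 CPM. The abundant lysosomal genes Ctsb and Lamp1, which hepatocytes also express, had adjusted p = 0.612 and 0.471. In the fit lacking the control pool, 2 genes were called higher, Gpnmb and Msr1.

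Neutrophil genes were low throughout. S100a8 and S100a9, calprotectin subunits, reached 8.64 and 11.5 CPM in the control pool and 2.94 and 2.71 CPM in the LKO pool against at most 2.01 and 3.52 CPM, so that S100a9 in the LKO pool lay within the range of the mice. Of 7 neutrophil genes tested 3 rose, and without the control pool edgeR called 0, with 1 at an unadjusted p under 0.05. Without control mouse 1 or 2 the 3 rises became 1, and without the LKO pool 5. Of 9 lymphocyte genes tested only Gzmb was called, and it fell, with 90 counts over the 8 mice and 6 over the pools. The call was lost without the control pool, where 1 of 13 lymphocyte genes tested was called higher and 0 lower.

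Among 22 chemokine and cytokine genes tested, 10 rose and 1 fell, and without the control pool 2 were called higher. Ccl2, the ligand of CCR2, was 0.139 to 1.28 CPM in the mice and 14.9 and 4.52 CPM in the pools (15.7-fold, adjusted p = 0.000357). Ccl7, which binds the same receptor, had 5 counts over the 8 mice and 101 over the pools, and was still called without the control pool, while Ccl2 was not. Cxcl1, a chemokine of neutrophils, was 5.88, 11.4 and 50.1 CPM at the lowest, median and highest mouse and 108 and 40.4 CPM in the pools. The LKO pool lay within the range of all 8 mice but above the LKO mice, which reached 12.3 CPM. The gene that fell was Cxcl9, a ligand of the lymphocyte receptor CXCR3, at 1.13 CPM in the control pool and 4.57 CPM in the LKO pool against 3.78 to 6.37 CPM. The call was lost without control mouse 1, 2 or 4 or LKO mouse 2, 3 or 4. It was also lost with scaling by library size, with either stranded count and with all 18 libraries in the fit.

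**Figure D2:**
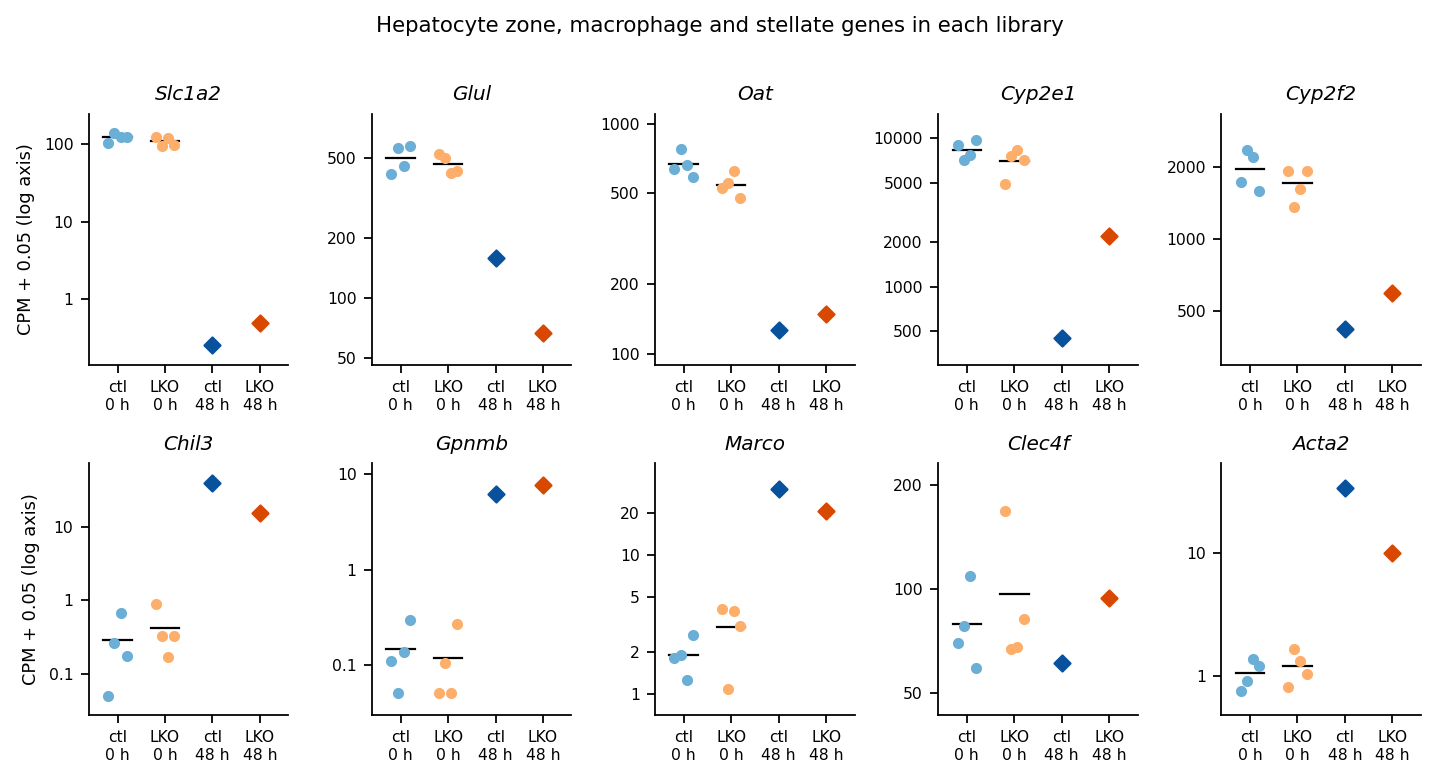
CPM on a log scale for pericentral, periportal, macrophage, Kupffer and stellate cell genes in the 10 libraries: points at 0 h are single mice and points at 48 h are the control and LKO pools. Bars mark the means of 4 mice and 0.05 is added to each value. The pericentral genes Slc1a2, Glul, Oat and Cyp2e1 and the periportal gene Cyp2f2 lie under all 8 mice in both pools, Chil3, Gpnmb, Marco and Acta2 lie above them, and Clec4f lies within their range at 61.1 and 94.0 CPM.

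Of 40 stellate cell and matrix genes tested, 20 rose and 0 fell, with a median log2 fold change of 0.76. The median difference from 0 h was 0.84 in the control pool and 0.58 in the LKO pool, and without the control pool 7 were called higher, Acta2 and Col1a1 among them. Acta2, the smooth muscle actin of activated stellate cells, was 0.705 to 1.59 CPM in the mice, 33.9 CPM in the control pool and 9.88 CPM in the LKO pool (18.9-fold, adjusted p = 2.56e-05). Col1a1, a chain of fibrillar collagen I, was 4.00 to 10.1 CPM and then 29.8 and 20.6 CPM (4.64-fold, adjusted p = 0.000113). Both genes were above every mouse in both pools. Timp1, an inhibitor of matrix proteases, and Lox, which crosslinks collagen, were at most 0.425 and 0.485 CPM at 0 h, 5.27 and 3.63 CPM in the control pool and 1.92 and 1.98 CPM in the LKO pool. Ctgf, a matrix protein induced by YAP and TGF-β, was 9.95 to 27.7 CPM and then 241 and 29.8 CPM (adjusted p = 0.00101). The quiescence genes Lrat and Reln did not pass the test, at 12.2 and 30.6 CPM in the control pool and 16.2 and 42.9 in the LKO pool. Fn1, fibronectin, which hepatocytes also secrete and which was the most abundant gene of the list, was 1997 and 1604 CPM in the pools against a highest mouse of 1555 CPM (adjusted p = 0.199).

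Sinusoidal endothelial genes gave 7 falls and 1 rise among 30, with a median of -0.25, and with scaling by library size 3 falls and 3 rises with a median of -0.06. The falls were Stab2, a scavenger receptor, Dnase1l3, Ehd3, Tie1, Vwf and the ligands Wnt2 and Wnt9b. Dnase1l3, a secreted nuclease, was 62.1 to 90.4 CPM in the mice and 27.3 and 49.7 CPM in the pools (2.04-fold lower, adjusted p = 0.00738). The general endothelial genes Pecam1 and Cdh5 were not called, at adjusted p = 0.293 and 0.303. Lyve1 rose in the test, with 35.9 CPM in the control pool but 8.02 CPM in the LKO pool, within the 0 h range of 4.29 to 9.13 CPM. With the control pool omitted, 1 gene of the list was called, and it was lower, and without the LKO pool 4 fell and 3 rose.

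Of 28 cytoskeletal genes tested, 22 rose and 0 fell, with a median log2 fold change of 1.31, 1.72 in the control pool and 0.71 in the LKO pool relative to their own mice, and without the control pool 10 were called higher. S100a6 and S100a11, calcium-binding proteins of spreading cells, were at most 2.36 and 5.41 CPM in the mice and stood at 96.0 and 104 CPM in the control pool and 29.6 and 36.2 CPM in the LKO pool. Anxa2, a membrane-binding annexin, was 8.04 to 12.8 CPM and then 281 and 84.2 CPM (16.1-fold, adjusted p = 3.76e-06), and its relative Anxa3 was at most 4.23 CPM and then 49.4 and 27.7 CPM. All 4 were still called without the control pool. Actb, cytoplasmic actin, often used as a reference gene and also still called, was 355 to 546 CPM and then 1348 and 1068 CPM (2.50-fold, adjusted p = 0.000703).

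Several genes of the fetal liver and of progenitor cells were higher. Of 14 tested, 6 rose and 1 fell, and without the control pool 4 were called higher, including Afp, Ly6d and Sox9. Afp, the fetal counterpart of albumin, was 0.927 to 2.96 CPM in the mice, 49.8 CPM in the control pool and 10.5 CPM in the LKO pool (16.9-fold, adjusted p = 0.000117). Ly6d, a small surface protein, was at most 1.52 CPM and then 85.6 and 20.3 CPM, and Sox9, a factor of bile duct and progenitor cells, was at most 7.56 CPM and then 21.8 and 11.0 CPM. Cd44, a hyaluronan receptor, was at most 5.47 CPM and then 27.5 and 16.1 CPM. The bile duct keratin Krt19 fell, with 1.28 to 2.65 CPM in the mice and 0.818 and 0.452 CPM in the pools (adjusted p = 0.0358). This call was lost without either pool and without control mouse 1 or 4 or LKO mouse 3. It was also lost with scaling by library size and with the stranded count of column 4. The markers Krt7, Krt19 and Epcam summed to 3.64 to 7.69 CPM in the mice and 3.38 and 1.81 CPM in the pools.

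Acute-phase proteins were raised in part. Of 29 genes, 7 rose and 0 fell, and without the control pool 3 were called higher, with Hp and Apcs among them and Lcn2 not, and without the LKO pool 4 were. With scaling by library size 11 rose. Lcn2, lipocalin 2, an iron-sequestering protein, was 1.70, 7.63 and 33.3 CPM at the lowest, median and highest mouse, 490.3 CPM in the control pool and 256 CPM in the LKO pool (31.9-fold, adjusted p = 0.00091). Hp, haptoglobin, was 2094 to 3249.8 CPM and then 6019 and 6896 CPM, and Apcs, serum amyloid P, was 100.2 to 301 CPM and then 484 and 844 CPM. Both pools were above every mouse in all 3 genes. Saa1, serum amyloid A1, was not called, with 25.3 to 680.1 CPM in the mice and 57.6 and 143 CPM in the pools.

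Of 37 NRF2 targets and glutathione genes tested, 8 rose and 2 fell, with a median of -0.05 that turned to 0.17 with scaling by library size, and without the control pool 2 rose, Slc7a11 and Gsta1, and 1 fell. The 2 falls became 5 with DESeq2, without control mouse 4 or without the LKO pool, 4 without control mouse 3 or LKO mouse 1, and 6 with all 18 libraries in the fit. Slc7a11, the cystine transporter that feeds glutathione synthesis, had 2 counts over the 8 mice and 286 over the pools, a ratio of pooled CPM of 488.8 with a 95% counting interval of 134.1 to 4056. It was 4.91 CPM in the control pool and 10.7 CPM in the LKO pool. Gsta1, a glutathione transferase with close relatives that share reads, was at most 2.58 CPM and then 53.6 and 16.8 CPM. Srxn1, sulfiredoxin, was 27.3 to 43.1 CPM and then 128 and 69.1 CPM (2.69-fold, adjusted p = 0.00101), whereas the classic target Nqo1 was 4.76 and 8.92 CPM against 2.77 to 7.53 CPM (adjusted p = 0.373). Hmox1, heme oxygenase, was 90.5 CPM in the control pool and 23.8 CPM in the LKO pool, the second within the range of the mice, which reached 25.2 CPM. Gclc, the rate-limiting enzyme of glutathione synthesis, had a log2 fold change of 0.03 ± 0.24.

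The calls in the stress and growth factor lists depended on the control pool. Of 30 p53 targets 8 rose and 1 fell, of 24 immediate-early genes 7 rose and 1 fell, and of 29 growth factor and receptor genes 7 rose and 1 fell. The immediate-early fall was lost without control mouse 1 or 2 or LKO mouse 4. The growth factor fall was lost without control mouse 1 or LKO mouse 2 or 4. Both were lost with scaling by library size, and DESeq2 called 3 immediate-early falls. In fits without the control pool 0 genes of these 3 lists were called in either direction by edgeR, with 11, 9 and 7 at an unadjusted p under 0.05. Without the LKO pool 13 growth factor genes rose. Their median log2 difference from 0 h was 0.77, 0.61 and 0.91 in the control pool and 0.16, -0.24 and 0.12 in the LKO pool. Ier3, an early gene against cell death, was at most 1.68 CPM in the mice, 16.2 CPM in the control pool and 2.31 CPM in the LKO pool. Among p53 targets, Psrc1, a spindle protein, and Eda2r, a death receptor, stood at 1.28 and 3.53 CPM in the control pool and 1.36 and 0.847 CPM in the LKO pool against at most 0.346 and 0.364 CPM. Dusp5, a phosphatase that acts on ERK, was at most 1.5 CPM, then 23.5 and 0.790 CPM, and its response differed between genotypes (adjusted p = 0.0444). Hbegf and Btc, ligands of the EGF receptor, were at most 1.19 and 3.42 CPM at 0 h, 7.36 and 11.0 CPM in the control pool and 1.52 and 4.63 CPM in the LKO pool. Plau, urokinase, which activates hepatocyte growth factor, was at most 0.990 CPM and then 5.93 and 4.18 CPM (adjusted p = 0.00154). Map3k8, a kinase upstream of ERK and JNK, was 1.03 to 2.80 CPM in the mice and 12.5 and 2.88 CPM in the pools (adjusted p = 0.0142), with the LKO pool just above the range.

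Interferon-stimulated genes showed the reverse balance between the pools. Of 33 genes, 12 rose and 0 fell, with a median log2 difference from 0 h of 0.28 in the control pool and 0.89 in the LKO pool, and the difference was larger in the LKO pool for 32 of 33. Both pools lay above all 8 mice for 7 of them, against 13.2% of all genes tested. Without the LKO pool 2 genes were called and without the control pool 5, with Ifi44 and Oas1a among the 5 and Irf7 not. Ifi44 was 1.04 to 5.21 CPM in the mice, 3.22 CPM in the control pool and 23.3 CPM in the LKO pool. Oas1a, a sensor of double-stranded RNA, was at most 4.37 CPM and then 4.65 and 13.8 CPM, and Irf7, the master regulator of the response, was at most 52.8 CPM and then 49.4 and 94.7 CPM. For Ifi44 and Irf7 the control pool lay within the range of all 8 mice but above the control mice, which reached 2.29 and 29.5 CPM. The log2 difference of Irf7 from 0 h was 1.06 in the control pool and 1.25 in the LKO pool. By the test of the difference between genotypes, edgeR and DESeq2 each called 0 of the 33, and 5 had an unadjusted p under 0.05 in edgeR.

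Of 30 fatty acid oxidation and ketogenesis genes, 9 fell and 2 rose, the 2 being Pdk4 and Plin2, high in the control pool alone. When the control pool was left out, edgeR called 0, with 10 at an unadjusted p under 0.05. The 9 falls became 5 without the LKO pool or without control mouse 1 or 2. Acot1, an acyl-CoA thioesterase induced by fasting, was 34.9 to 116 CPM in the fasted mice and 14.7 and 14.3 CPM in the pools (adjusted p = 0.00809). Both pools lay under every mouse. Of 35 lipogenesis and cholesterol genes 8 rose and 2 fell (2 and 0 without the control pool, Nsdhl and Dhcr7, 3 and 4 without the LKO pool). All 8 that rose, Sqle, Idi1, Msmo1, Nsdhl, Cyp51, Hmgcs1, Dhcr7 and Mvk, act in cholesterol synthesis. Sqle, squalene epoxidase, was 3.46 to 15.2 CPM and then 35.8 and 25 CPM (adjusted p = 0.00492), and Nsdhl was 11.5 to 19.3 CPM and then 37.8 and 33.3 CPM (adjusted p = 0.000857). Of 26 bile acid synthesis and transport genes 8 fell and 1 rose, and without the control pool 2 fell, Abcb4 among them, without the LKO pool 12 and with DESeq2 13. Abcb4, which exports phospholipid into bile, was 293 to 358 CPM and then 136 and 125 CPM (2.49-fold lower, adjusted p = 0.000433). Abcc4, a basolateral exporter that opens an alternative route, was the member that rose, from at most 3.21 CPM to 5.37 and 8.02 CPM. Cyp7a1, the rate-limiting enzyme of bile acid synthesis, was 15.3 CPM in the control pool and 171 CPM in the LKO pool against 31.9 to 148 CPM, outside the range on opposite sides (adjusted p = 0.812).

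**Figure D3:**
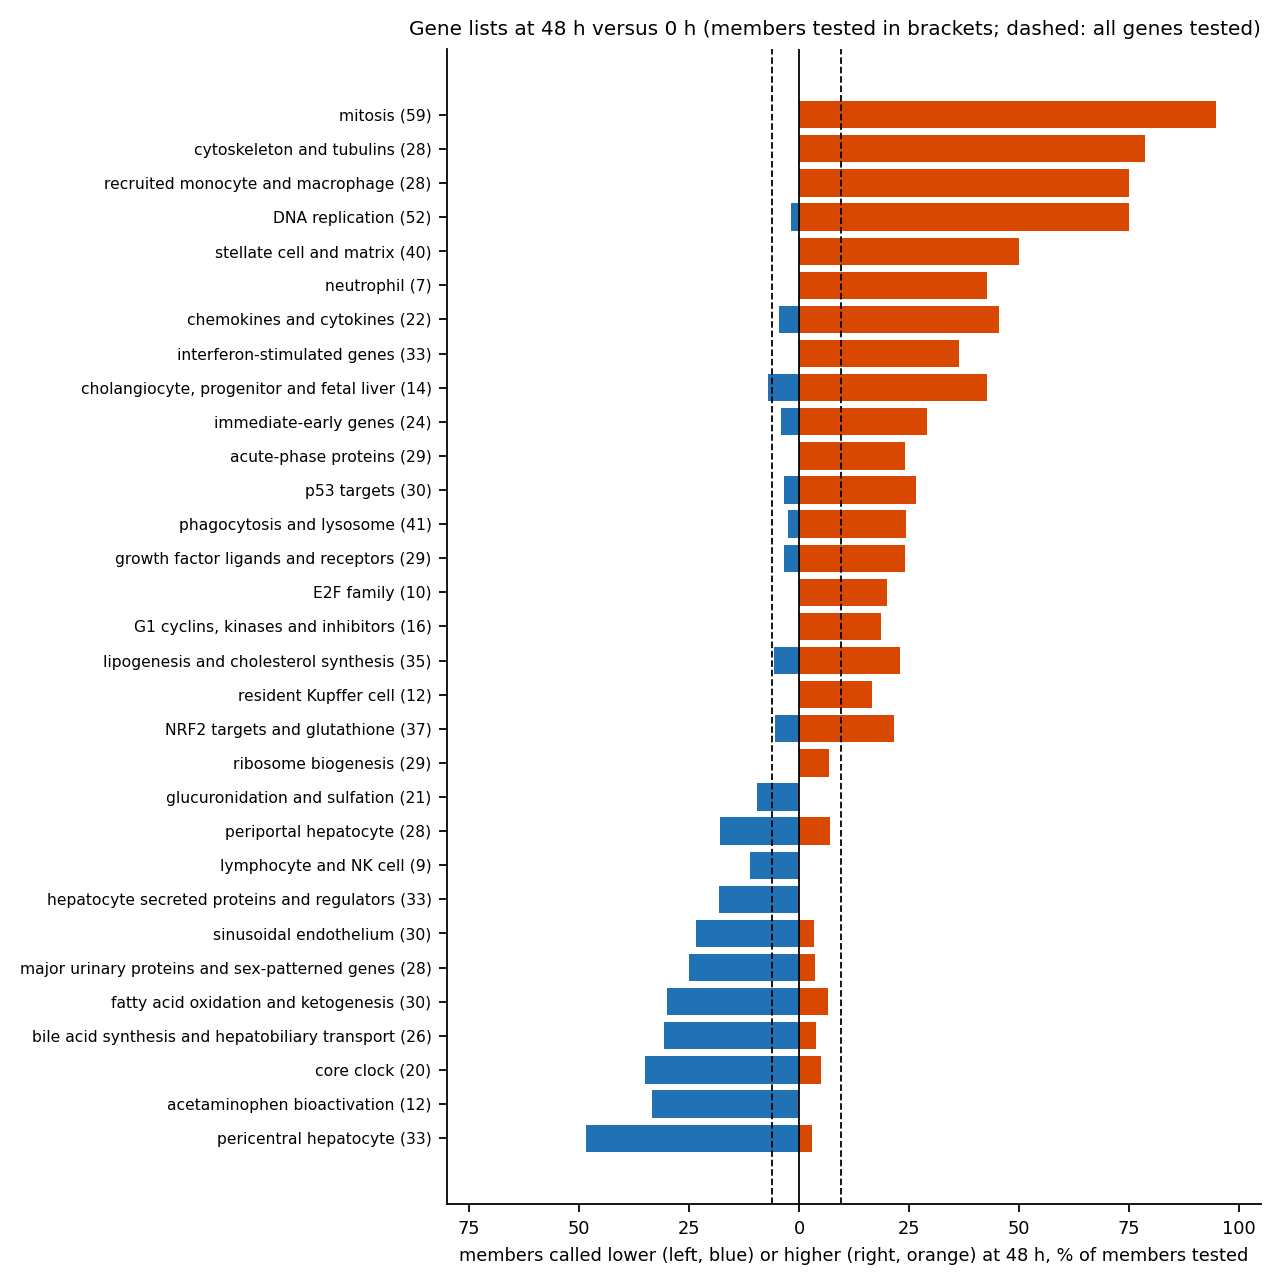
Share of the tested members of each gene list, in percent, called higher (bars to the right) or lower (bars to the left) at 48 h versus 0 h, with the number tested in brackets and dashed lines at the shares of all genes tested (9.58% higher and 6.13% lower). Mitosis genes have the longest bar to the right (56 of 59) and pericentral genes the longest to the left (16 of 33).

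The largest rises among genes of at least 1 CPM included several that were nearly silent at 0 h. Sprr1a, a cornified envelope protein induced in wounded epithelia, had 3 counts over the 8 mice and 128 CPM in the control pool and 16.8 CPM in the LKO pool. The ratio of its pooled CPM was 3194, with a 95% counting interval of 1092 to 15500. Cdh17, the liver-intestine cadherin, had 1 count over the mice and 26.7 and 2.54 CPM in the pools, a ratio of 1938 (interval 346.5 to 76690). Psca, a surface antigen of the Ly6 family, had 0 counts over the mice, 1.74 and 0.565 CPM in the pools, and was at least 50.1-fold higher with a floor of 3 counts over the 8 mice. In these 3 genes the control pool was at least 3 times the LKO pool. Sult1e1, estrogen sulfotransferase, was at most 0.261 CPM in the mice, 16.0 CPM in the control pool and 0.734 CPM in the LKO pool. Apoa4, an apolipoprotein of lipid secretion, was among the most abundant genes that rose: 76.8 to 149.6 CPM in the mice, 15818 CPM in the control pool and 1574 CPM in the LKO pool (68.8-fold, adjusted p = 2.47e-05). Of these, Sult1e1 lost its call without the control pool. The others of the 10 were Slc7a11, Chil3, Gpnmb, Ttk and Fignl1, a DNA repair ATPase at 6.24 and 4.97 CPM against at most 0.176 CPM.

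The largest falls after Slc1a2 included AW549542 and Ppp1r3g. Ppp1r3g, a regulatory subunit that directs a phosphatase to glycogen, was 32.1 to 84.8 CPM in the fasted mice and 0.972 and 4.74 CPM in the pools (adjusted p = 0.00062). AW549542 was at a median of 8.77 CPM in the mice and 0.102 and 0.395 CPM in the pools. The heat shock genes Hspa1a and Hspa1b, near-identical copies whose unique reads may be split unevenly, were at medians of 12.9 and 83.7 CPM and then 1.79 and 9.05 CPM in the control pool and 1.02 and 8.47 CPM in the LKO pool. Ano1, a chloride channel, fell from a low level, with 314 counts over the mice and 10 over the pools. Cyp2a5 and Cyp2c29 were also among the 10 largest falls. Of these falls, Slc1a2, AW549542, Ppp1r3g, Hspa1a and Ano1 were still called with the control pool left out. Of the sirtuins, Sirt3, the mitochondrial deacetylase, fell (56.0 to 112 CPM, then 34.9 and 47.9 CPM, adjusted p = 0.0108), and Sirt1 and Sirt6 had adjusted p = 0.412 and 0.446.

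The response differed between genotypes for 66 of 13271 genes (0.497%) by edgeR's test of the genotype by time term, 28 with a higher (0.211%) and 38 with a lower (0.286%) response in LKO livers. Each genotype has 1 pool at 48 h, so the error of this test comes from the 0 h mice alone. DESeq2 called 443 genes, leaving out single 0 h mice gave 17 to 65, and with scaling by library size 15 were higher and 70 lower. For all 38 genes with a lower LKO response the control pool lay above every 0 h mouse, and the LKO pool lay above them for 13, within their range for 13 and below it for 12. For all 28 with a higher LKO response the control pool lay below every mouse, and the LKO pool lay below for 12, within for 12 and above for 4.

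Of the 38 genes with a lower LKO response, Cidec, Hilpda, Pdk4, Rab30 and G0s2 had the largest differences. Cidec, a protein that fuses lipid droplets, was 4.61 to 9.34 CPM in the mice, 431 CPM in the control pool and 3.22 CPM in the LKO pool. The difference of the responses was -6.67 ± 0.52 on the log2 scale (adjusted p = 0.000882). Hilpda and G0s2, inhibitors of the triglyceride lipase ATGL, were at most 3.05 and 23.3 CPM in the mice, 142 and 151 CPM in the control pool and 3.27 and 10.6 CPM in the LKO pool. Plin2, the main coat protein of droplets, was 246 to 438 CPM and then 2404 and 271 CPM (difference -3.29 ± 0.44, adjusted p = 0.0162). Pdk4, the kinase that shuts glucose out of the citric acid cycle, was 4.64 to 8.18 CPM and then 194 and 5.82 CPM. In all of these the LKO pool lay inside or close to the range of the mice. The GTPase gene Rab30 was at 229 and 8.19 CPM against 8.04 to 20.3 CPM. Apoa4 also had a lower LKO response but rose in both pools.

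Plaur and Plat, the urokinase receptor and tissue plasminogen activator, also had a lower LKO response. They were at most 0.784 and 0.901 CPM in the mice, 18.3 and 17.0 CPM in the control pool and 1.69 and 2.43 CPM in the LKO pool. Tnfrsf12a, the TWEAK receptor of injured and regenerating hepatocytes, was 3.19 to 9.05 CPM and then 209 and 11.3 CPM (difference -3.94 ± 0.60, adjusted p = 0.0258). Txnip, an inhibitor of thioredoxin, was 162 to 209 CPM in the mice, 263 CPM in the control pool, above every mouse, and 54.3 CPM in the LKO pool, below every mouse (difference -2.41 ± 0.28, adjusted p = 0.00641).

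The genes with a higher LKO response included hepatocyte enzymes that were lower in the control pool. Cyp2c29 was 1496 to 3924 CPM in the mice, 23.1 CPM in the control pool and 603 CPM in the LKO pool (difference 4.88 ± 0.67, adjusted p = 0.0162), although it shares reads with other Cyp2c genes. For Cyp1a2 the difference was 3.54 ± 0.36 (adjusted p = 0.00286) and for Cyp2e1 2.55 ± 0.43 (adjusted p = 0.0385). Both enzymes were lower in the control pool than in the LKO pool. Rgn, regucalcin, a calcium-binding lactonase, was 76.2 CPM in the control pool and 768 CPM in the LKO pool against 672 to 1113 CPM, and Upp2, a uridine phosphorylase, was 49.0 and 442 CPM against 267 to 729 CPM. Slco1a1, an organic anion transporter, was 21.9 and 142 CPM against 224 to 577 CPM, under every mouse in both. Of the 33 pericentral genes 6 were among those that differed.

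**Figure D4:**
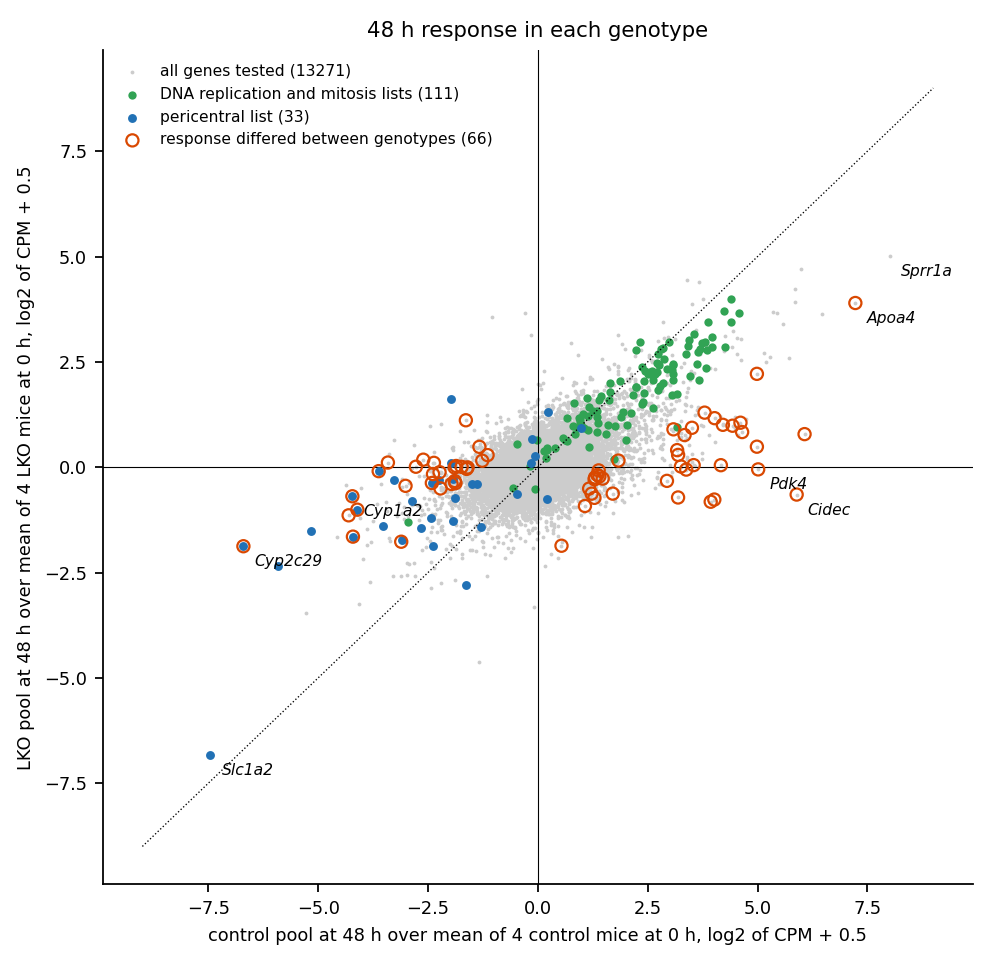
Each point is a gene, placed by its log2(CPM + 0.5) difference from the mean of its own genotype's 0 h mice in the control pool (horizontal axis) and in the LKO pool (vertical axis), with the genes whose response differed between genotypes marked. The 66 marked genes lie away from the dotted diagonal, and 38 of them are high in the control pool, as Cidec is at 431 CPM against at most 9.34 CPM in the mice.

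Livers at 48 h were also set against the neighbouring times. For 48 h minus the mean of 24 h and 72 h, over all 18 libraries of the cohort, edgeR called 0 of 13855 genes (0%), 703 had an unadjusted p under 0.05, and DESeq2 called 21. Against 24 h alone 103 genes were called, 90 of them higher at 48 h, and against 72 h alone 21, of which 19 were lower at 48 h. The median of this contrast was 1.43 on the log2 scale for mitosis genes, 0.11 for replication genes, -0.66 for pericentral genes and 0.01 for all genes.

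The levels by time show where 48 h stands. The following values are CPM scaled over the 18 libraries, given as control and LKO, with the mean of 4 mice at 0 h and 1 pool at each later time. Because every time is read against the same 0 h mice, the values are set side by side without a test. Mki67 was 1.05 and 2.09 at 0 h, 0.910 and 0.986 at 24 h, 36.0 and 30.8 at 48 h, 53.1 and 62.0 at 72 h and 2.48 and 5.21 at 96 h, and Ccnb1 was 0.172 and 0.307 at 0 h, 0.0607 and 0 at 24 h, 9.79 and 6.23 at 48 h, 25.1 and 17.5 at 72 h and 0.778 and 0.706 at 96 h. Both mitotic genes were no higher at 24 h than at 0 h, high at 48 h and higher at 72 h in both genotypes. Mcm5 was already 8.13 and 5.45 at 24 h, then 23.4 and 24.5 at 48 h and 51.5 and 39.2 at 72 h, against 1.33 and 2.84 at 0 h. E2f7 was 0.425 and 0.259 at 24 h, 1.12 and 1.47 at 48 h and 4.39 and 1.90 at 72 h, and E2f8 was 4.19 and 14.7, 4.89 and 21.5 and 7.78 and 16.6 at the same times. Counts assigned to E2f8 were thus higher in LKO than in control livers at each of these times. Gpnmb was 1.94 and 0.467 at 24 h, 6.22 and 7.76 at 48 h, 107 and 117 at 72 h and 12.3 and 1.20 at 96 h. Cd68 was 34.4 and 16.1 at 12 h, 36.0 and 14.3 at 24 h, 25.5 and 29.6 at 48 h and 50.4 and 31.1 at 72 h. Both genes had their highest level at 72 h.

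Of the pericentral genes, Cyp2e1 had its lowest control level at 48 h. It was 8430.0 and 7079 at 0 h, 1207 and 2498 at 24 h, 448 and 2213 at 48 h, 2521 and 4272 at 72 h and 6923 and 4159 at 96 h. Slc1a2 was 124 and 110.1 at 0 h, 2.29 and 6.30 at 12 h, 0 and 1.66 at 24 h, 0.204 and 0.453 at 48 h and 8.78 and 8.26 at 96 h. Plin2, whose response at 48 h differed between genotypes, was 2207 and 1878 at 12 h, 3078 and 2613 at 24 h, 2397 and 272 at 48 h and 406 and 292 at 72 h, and Cidec was 150.0 and 224, 252 and 209.9, 429 and 3.23 and 12.5 and 2.56 at the same times. In both genes the pools of both genotypes were high at 12 h and 24 h, and at 48 h the control pool alone was. Cdkn1a was 379 and 204 at 12 h, 246 and 103 at 24 h, 205 and 35.2 at 48 h and 48.6 and 11.2 at 72 h, lower in the LKO pool at each of these times.

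**Figure D5:**
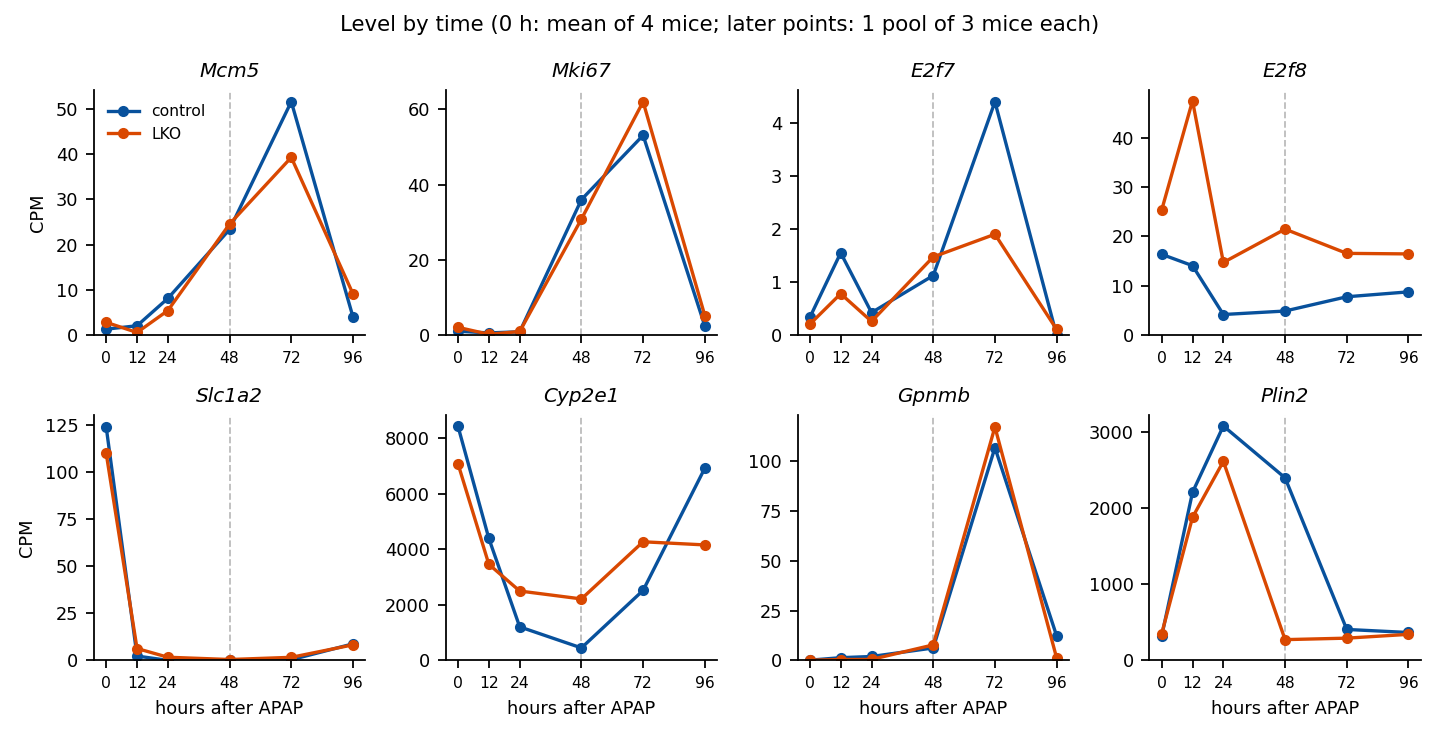
CPM over hours after APAP in control and LKO livers for 8 genes, with linear axes from 0 and a dashed line at 48 h: points at 0 h are means of 4 mice and later points single pools of 3 mice. Mki67 climbs between 24 h and 72 h in both genotypes, and Plin2 at 48 h is at 2397 and 272 CPM in the control and LKO pools.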

How the data were processed

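RNA from snap-frozen liver was extracted by the authors and sequenced by a commercial provider. The authors trimmed reads with Trimmomatic and aligned and counted them with STAR against mm10. The deposited files hold raw read counts for 24411 genes in 3 columns (unstranded and each strand), made by the authors with no normalization. The unstranded count was used, so reads from overlapping or antisense genes, or from near-identical copies, cannot be fully told apart. The 4 entries that name no gene, among them unmapped, multi-mapping and ambiguous reads, were dropped. They took 21.0% to 39.9% of the reads of the 10 libraries. Depth sets the floors given with the results, which cover counting error only.

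Genes were tested with edgeR 4.0.16 (R 4.3.3; TMM scaling, filterByExpr by time, glmQLFit and glmQLFTest, Benjamini-Hochberg), at adjusted p under 0.05 and at least 1.5-fold. Time with genotype as covariate and the genotype by time term used the 10 libraries, and 48 h against the mean of 24 h and 72 h used the 18 libraries of the cohort. SE is the absolute log2 fold change divided by the square root of F. The 48 h pools give 1 value per genotype, and p-values measure only the spread between these libraries. Scripts were tested on simulated data. DESeq2 1.42.0, other scalings, filters and count columns, and leaving out each library were alternatives. The libraries of another Cre cohort, which has no 48 h sample, were not analysed here, and Ly6g is not in the table.

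The libraries and gene lists were chosen with earlier results of these data known. Genes were named by a rule: the 10 largest rises and falls among genes with a mean of at least 1 CPM, E2f7 and E2f8, the 4 largest changes and 2 highest levels of each list, defining markers, genes the study names and the 5 largest genotype differences each way. Of the 184 genes named, 119 follow this rule, and the others, all list members, were named after their values were seen. Some genes that meet the rule are not reported here. Map3k9 was not tested because of low counts. Promoter sequences came from RefSeq (GRCm38.p6) and gene positions from GENCODE on GRCm38.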

Additional observations from a re-analysis of the deposited data

Results flagged for a closer look

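Among the 184 genes named, 35 of 368 groups of 4 untreated mice had 1 mouse far from the other 3, by Dixon's test of the gap to the nearest of them. Chance gives about 1 such group in 20 where values are continuous and independent. That share does not apply to groups in which a single mouse held all counts, whose ratio is fixed. Genes flagged through the same mouse are not independent. A control mouse was high at 10.8 CPM for Adgre1 (others 7.10 to 7.56), 0.435 CPM for Ccnb1 (others 0.0587 to 0.121), 10.1 CPM for Col1a1 (others 4.85 to 5.64), 1.5 CPM for Dusp5 (others 0.607 to 0.705) and 3.82 CPM for Oas1a (others 2.00 to 2.24). In the same genotype a mouse was high at 8.18 CPM for Pdk4 (others 4.64 to 5.04), 2.00 CPM for S100a8 (others 0.235 to 0.499), 3.52 CPM for S100a9 (others 0.764 to 0.957), 1.82 CPM for Sp5 (others 0.411 to 0.642) and 6.44 CPM for Timd4 (others 2.82 to 3.22). A control mouse was low at 4.93 CPM for Clec1b (others 5.35 to 5.40), 27.3 CPM for Srxn1 (others 37.2 to 39.1), 0.499 CPM for Top2a (others 1.03 to 1.13), 78.7 CPM for Ugt3a1 (others 81.6 to 82.1) and 6.70 CPM for Vwf (others 9.40 to 9.77). In control mice, a single mouse held all counts at 0.0713 CPM for Bub1, 0.117 CPM for Ccl7, 0.0607 CPM for Cdh17 and 0.0607 CPM for Slc7a11. An LKO mouse was high at 104 CPM for Cd5l (others 43.7 to 48.9), 169 CPM for Clec4f (others 67.2 to 82.0), 68.8 CPM for Csf1r (others 31.7 to 36.7), 321 CPM for Elovl3 (others 48.8 to 77.6) and 1310 CPM for G6pc (others 638 to 735). These were all values of LKO mouse 1. In the same genotype a mouse was high at 3.52 CPM for Mki67 (others 1.52 to 1.70), 680 CPM for Saa1 (others 25.3 to 54.6) and 18.2 CPM for Sirt1 (others 13.5 to 13.9). An LKO mouse was low at 3250 CPM for Cps1 (others 4470 to 4600), 0.0693 CPM for Eda2r (others 0.271 to 0.290), 4.29 CPM for Idi1 (others 13.0 to 13.3), 17.8 CPM for Pecam1 (others 21.6 to 22.4) and 174 CPM for Txnip (others 205 to 209). In LKO mice, a single mouse held all counts at 0.162 CPM for Ccl7, 0.0550 CPM for Slc7a11 and 0.165 CPM for Sprr1a.

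The 48 h response differed between genotypes, by the test of the genotype by time term, in 20 of the genes named. On the log2 scale, LKO minus control, the difference was -6.67 for Cidec, -5.49 for Hilpda, -5.18 for Pdk4, -4.89 for Rab30, -4.81 for G0s2, -4.70 for Dusp5, -3.94 for Tnfrsf12a, -3.63 for Plaur, -3.34 for Apoa4, -3.29 for Plin2, -3.27 for Plat and -2.41 for Txnip. It was positive, 4.88 for Cyp2c29, 3.54 for Cyp1a2, 3.53 for Rgn, 3.52 for Upp2, 3.19 for Slco1a1, 2.55 for Cyp2e1, 1.90 for Otc and 1.38 for Ugt3a1. Each value rests on 1 pool per genotype at 48 h, so the spread between treated mice does not enter it.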

How the results depend on the processing

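The count of genes changed at 48 h stayed within 1.5 times of 2086 under every alternative but 1, from 1612 with at least 10 counts in every library to 2557 with DESeq2, and leaving out single libraries gave 290 to 2386, the 290 being without the control pool at 48 h. Scaling by library size moved the median of all genes by 0.19 on the log2 scale and the split from 61.0% higher of the calls to 81.3% (1983 of 2439). The genotype difference of 66 genes became 443 with DESeq2, 34 with the stranded count of column 4, and 17 to 65 without single 0 h mice. For 48 h against the mean of 24 h and 72 h the 0 calls became 21 with DESeq2, 2 with library size scaling, 1 without a filter, 1 with either stranded count, 103 against 24 h alone, 21 against 72 h alone, 7 with the 6 pools alone, and 0 to 9 without single libraries. The cause of these moves was not tested. Of the 148 genes named here that were called, 145 kept direction and call with DESeq2, 148 with RLE scaling, 139 with library size scaling, 128 to 146 without single 0 h mice, 123 without the LKO pool and 64 of 147 without the control pool. The log2 fold changes of 5 genes turned sign between the fits without the control pool and without the LKO pool, at -0.0792 and 5.10 for Pdk4, -0.36 and 2.92 for Plin2, -0.73 and 5.93 for Cidec, -0.94 and 3.94 for Rab30 and -0.83 and 3.96 for G0s2. No paired analysis was possible because the livers at 48 h and at 0 h came from different mice. With 1 pool per genotype at 48 h, the spread between treated mice is unknown.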

Other observations

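Core clock genes differed between the fasted mice and the 48 h pools: of 20 tested, 7 fell and 1 rose, with a median log2 fold change of -0.57. Dbp, an output factor of the clock, was 28.8 to 127 CPM in the 8 mice and 8.64 and 10.2 CPM in the control and LKO pools (log2 fold change -3.10 ± 0.65, adjusted p = 0.00846). Nr1d1, the repressor REV-ERBα, was 181 to 297 CPM and then 30.9 and 36.1 CPM (adjusted p = 3.08e-05). Cry1, a clock repressor, was the gene that rose, at 21.9 and 17.4 CPM against 6.16 to 16.5 CPM (adjusted p = 0.0458), a call lost without either pool or without any 1 of 6 of the 8 mice. Without the control pool 3 clock genes were called lower, Nr1d1 among them and Dbp not, with scaling by library size the 7 falls became 4, and without control mouse 1 or 2 or LKO mouse 4 the 7 falls became 4. The hour of collection is not given in the sources used here, and its part in any result was not tested.

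Genes that differ between male and female livers, including major urinary protein genes and regulators of growth hormone signalling, gave 7 falls and 1 rise among 28, with a median of -1.15, and without the control pool 1 fall and 2 rises. The rise was A1bg, a gene of the female pattern, at 0 to 1.54 CPM in the mice and 0.563 and 6.27 CPM in the pools (adjusted p = 0.0466), the control pool within their range, and it lost the call with DESeq2, without either pool, and without control mouse 1, 2 or 3 or LKO mouse 1, 3 or 4. Elovl3, a fatty acid elongase, was 48.8 to 321 CPM in the mice and 23.9 and 13.1 CPM in the pools (adjusted p = 0.0351). Hsd3b5, a male-specific steroid dehydrogenase, was 79.1 to 294 CPM and then 8.44 and 50.1 CPM (adjusted p = 0.0193). The growth hormone receptor gene Ghr was 481 to 690.5 CPM and then 189 and 449.7 CPM (adjusted p = 0.0414). The major urinary protein genes share long stretches of sequence and are not given singly. Of 29 ribosome biogenesis genes 2 rose, Nop56 and Nop58, near the share of 9.58% of all genes tested, and 1 without control mouse 1, 2 or 4. With scaling by library size 6 rose, where 1983 of all genes did. Nop56 was 17.0 to 27.4 CPM and then 48.6 and 28.9 CPM (adjusted p = 0.031), and without the control pool edgeR called 0 of the list, with 1 at an unadjusted p under 0.05.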
